A study of Homo sapiens with 6 samples.

Results

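The 10 genes described here belong to the YAP and TEAD transcription pathway: the coactivators YAP1 and WWTR1, the DNA-binding factor TEAD1, the target genes CTGF, CYR61 and ANKRD1, and the pathway components LATS2, AMOTL1, AMOTL2 and AJUBA. They were chosen by name as known pathway genes, with earlier results of these data known. Each was found as 1 row of its own among the 24108 rows of the deposited expression matrix. All 10 passed the filter on low values, which kept the 11777 rows averaging 1 or more FPKM over the samples (FPKM is an RNA-seq level corrected for transcript length and library size). RNA sequencing compared MDA-MB-231 cells carrying a short hairpin RNA against the zinc finger transcription factor ZNF148 (shZNF148, n = 3) with the same cells carrying a control hairpin against luciferase (shCtr, n = 3). MDA-MB-231 is an established line of triple-negative, mesenchymal breast cancer cells. Both groups received lentivirus for 48 h and then puromycin at 0.5 µg/ml for 24 h, so that every sample was a transduced and selected population. Each group rests on 1 hairpin. No source used here says whether the replicates were separate cultures, so the p-values measure only the spread between these samples, which may be technical.

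In the Hippo pathway, the MST and LATS kinases phosphorylate the coactivators YAP (gene YAP1) and TAZ (gene WWTR1), which keeps them in the cytoplasm and marks them for degradation. Unphosphorylated YAP and TAZ enter the nucleus, bind TEAD proteins on DNA and switch on genes such as CTGF, CYR61 and ANKRD1. Several targets, among them LATS2 and the angiomotin-like genes, encode proteins that restrain YAP and TAZ in turn. MDA-MB-231 cells are known to lack functional NF2, an upstream activator of the LATS kinases, and to hold much active YAP and TAZ. RNA levels report neither phosphorylation nor location of these proteins.

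The hairpin's own target was lower in every shZNF148 sample. ZNF148 was at 3.72, 4.36 and 4.30 FPKM in shCtr replicates 1 to 3 and at 0.914, 0.282 and 0.834 FPKM in shZNF148 replicates 1 to 3, a log2 fold change of -1.63 (SE 0.18, limma adjusted p = 0.00990). The knockdown mean was 16.4% of control. At such low levels the log2 value depends on the pseudocount, and it was -2.57 with 0.1 FPKM and -0.69 with 5 FPKM. Without shCtr replicate 1 or 3 the adjusted p was 0.0603 and 0.0568. The lowest of the 6 values was in shZNF148 replicate 2. Of the line's markers, VIM, CD44, KRT18, MSN and ZEB1 were present, while ESR1 and KRT5 were listed at 0 and PGR and CDH1 stayed under 1 FPKM. EPCAM (7.996 to 11.1 FPKM) and the ERBB2 row, which ERBB2 shares with MIR4728 (20.1 to 126 FPKM), were not absent. The ERBB2 row was at 126 FPKM in shCtr replicate 2 and 125 FPKM in shZNF148 replicate 2. The other samples were at 20.1 to 24.8 FPKM. Of 6 markers of blood, endothelium and fibroblasts, PTPRC, PECAM1, CDH5 and LUM were below 1 FPKM in all samples, and DCN reached 2.82 FPKM in shCtr replicate 2 only. CD68, which tumour lines also transcribe, was at 117 ± 9.63 FPKM in the controls and 81.7 ± 7.66 FPKM in the knockdown (SD over 3 samples each), and its part in the results was not tested. Summed FPKM ran from 497730 to 507312 in shCtr and from 469594 to 488173 in shZNF148, and the number of reads per sample is unknown.

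The target genes CTGF, CYR61 and ANKRD1 were lower in the knockdown. The coactivators and most of their regulators, among them AMOTL1 and AMOTL2, which are also listed as YAP targets, did not pass the test. CTGF, CYR61 and ANKRD1 were at about 50% of their control level, LATS2 was lower by less than 1.5-fold, and the other 6 genes did not pass the test. The falls of CTGF, CYR61 and ANKRD1 were smaller without shZNF148 replicate 2. A gene was called when its limma p, adjusted over all 11777 tested rows, was under 0.05 and its level differed by more than 1.5-fold. By this rule 3 of the 10 genes were lower and 0 were higher in shZNF148, against 3.66% of all tested rows called lower and 1.83% called higher. On the adjusted p alone 4 of the 10 were lower and 0 higher, against 8.13% lower and 5.46% higher of all tested rows. The median log2 fold change, always shZNF148 over shCtr on the log2(FPKM + 1) scale, was -0.38 over the 10 genes and 0.01 over all tested rows. The 10 genes were chosen with earlier results of these data known, so these comparisons are not independent of the values. In bulk RNA, fewer cells expressing a gene and less RNA per cell cannot be told apart.

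**Figure D1:**
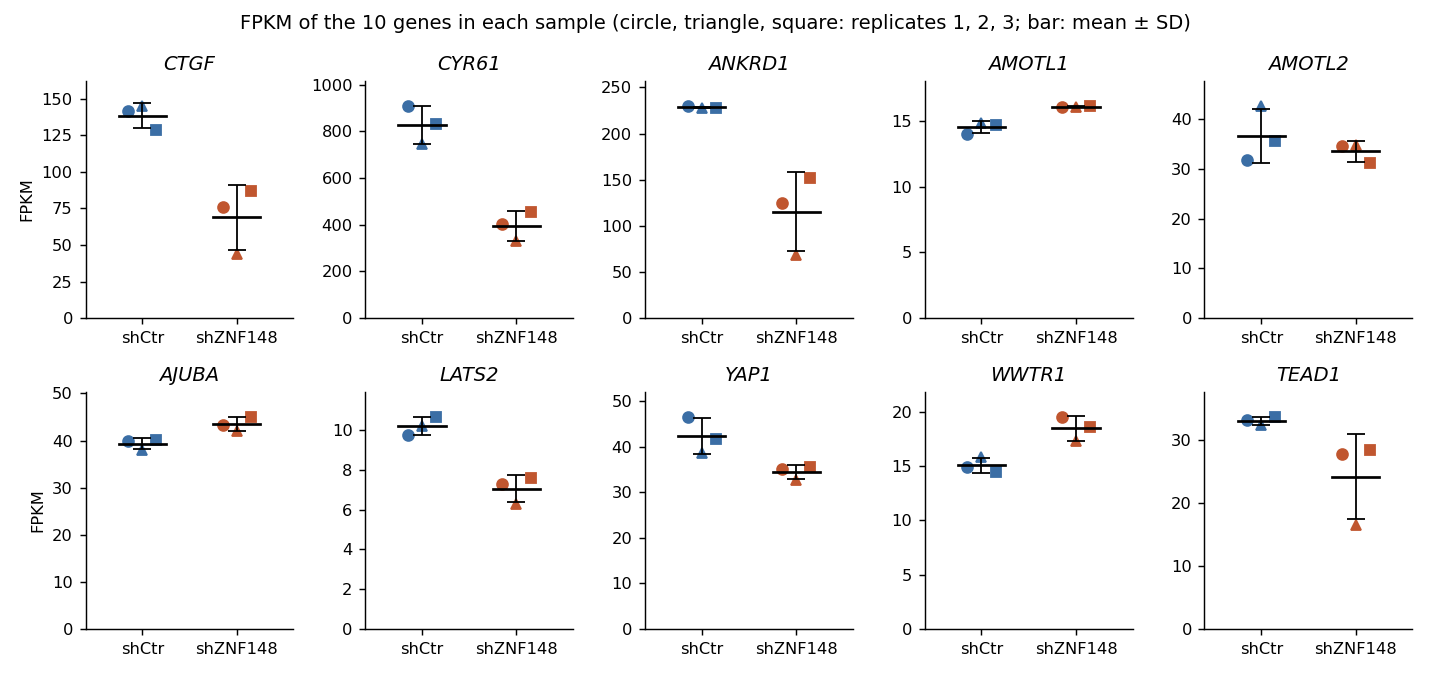
FPKM (vertical axes, each starting at 0) of the 10 genes in the 3 shCtr and 3 shZNF148 samples, with circles, triangles and squares for replicates 1, 2 and 3 and bars for mean ± SD. CTGF, CYR61 and ANKRD1 are well below control in all 3 shZNF148 samples. For 9 of the 10 genes, AMOTL2 being the exception, the groups do not overlap. Of all tested rows, 21.0% do not overlap with shZNF148 lower and 20.0% with shZNF148 higher.

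CYR61, also named CCN1, encodes a secreted matricellular protein that signals through integrins. It lies at chr1:85580761-85584589 on the plus strand (GRCh38, GENCODE). Its levels were 907, 745 and 829.7 FPKM in shCtr replicates 1 to 3 and 405, 329 and 453 FPKM in shZNF148 replicates 1 to 3. Every knockdown sample was below every control sample. Control averaged 827 ± 81.0 FPKM and knockdown 396 ± 62.9 FPKM (SD, n = 3 each), so the knockdown mean was 47.8% of control. The log2 fold change was -1.07 (SE 0.13, 95% confidence interval -1.39 to -0.75, limma adjusted p = 0.0111). Leaving out shCtr replicate 1 gave -1.002 with an adjusted p of 0.0661 and leaving out shCtr replicate 3 gave -1.07 with 0.0589, which ended the call, and the call held in the other 15 of 17 alternative settings.

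CTGF, also named CCN2, encodes a second secreted protein of the same family, which promotes matrix deposition. The gene spans chr6:131948176-131951372 on the minus strand. Control samples held 142, 145 and 129 FPKM, and knockdown samples held 76.2, 43.7 and 86.6 FPKM. The groups did not overlap, and shZNF148 replicate 2 was the lowest of the 6. From 138 ± 8.50 FPKM the mean moved to 68.9 ± 22.4 FPKM (SD, n = 3 each), which is 49.8% of control. The log2 fold change was -1.05 (SE 0.24, 95% confidence interval -1.62 to -0.48, limma adjusted p = 0.0372). Without shZNF148 replicate 2 it was -0.76, and the call held. Leaving out shCtr replicate 1, 2 or 3 or shZNF148 replicate 1 ended the call, with adjusted p of 0.124, 0.0974, 0.102 and 0.0677 in that order. So did keeping the rows of low level (0.0569), and over all 17 alternative settings the call held in 11.

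ANKRD1 encodes an ankyrin repeat protein best known as a stress-induced nuclear cofactor of muscle. It is annotated at chr10:90912096-90921087 on the minus strand. The 3 control samples were within 2 FPKM of each other, at 229.4, 227.7 and 227.8 FPKM, whereas the knockdown samples were spread over 125, 68.6 and 152 FPKM. Control was higher throughout, and shZNF148 replicate 2 was again the lowest. Control averaged 228 ± 0.949 FPKM and knockdown 115 ± 42.7 FPKM (SD, n = 3 each), or 50.5% of control. The log2 fold change was -1.06 (SE 0.27, 95% confidence interval -1.70 to -0.42, limma adjusted p = 0.0477), close to the threshold. Without shZNF148 replicate 2 it was -0.72, and the call held. The call held in 7 of 17 alternative settings. It ended at adjusted p of 0.143, 0.112, 0.130 and 0.0832 without shCtr replicate 1, 2 or 3 or shZNF148 replicate 1, and at 0.0574 with each sample scaled to equal summed FPKM.

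These 3 targets were also the most abundant of the 10 genes. In shCtr, CYR61 exceeded ANKRD1 and ANKRD1 exceeded CTGF with no overlap between samples, and they stood at the 99.4th, 97.4th and 95.1st percentile of tested rows by FPKM. YAP1, AJUBA, AMOTL2 and TEAD1 followed, each overlapping its neighbour in that order. WWTR1 and AMOTL1 came next and overlapped each other, and LATS2 was lowest, at the 44.4th percentile.

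The deposited values do not bear on where TEAD binds, and any link between sequence and the changes was not tested. The sequences just before the start sites are shown as background. They are the 250 bases before the RefSeq start in GRCh38.p14, read 5′ to 3′ on the gene's strand. Capitals mark GGAATG, a core hexamer recognised by TEAD proteins, or its reverse complement CATTCC. A window was found for 8 of the 10 genes, all but CYR61 and TEAD1. Those of LATS2, YAP1, AJUBA and WWTR1 are not printed, and their matches are given below the sequences. Shown are CTGF (chr6:131951373-131951622, minus strand), ANKRD1 (chr10:90921088-90921337, minus strand), the second start of AMOTL2 (chr3:134374448-134374697, minus strand) and AMOTL1 (chr11:94768106-94768355, plus strand).
CTGF: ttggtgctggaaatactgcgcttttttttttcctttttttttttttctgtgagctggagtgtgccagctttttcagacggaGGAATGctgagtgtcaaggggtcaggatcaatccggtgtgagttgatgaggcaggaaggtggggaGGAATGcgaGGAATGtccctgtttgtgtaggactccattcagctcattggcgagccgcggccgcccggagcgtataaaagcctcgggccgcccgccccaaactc
ANKRD1: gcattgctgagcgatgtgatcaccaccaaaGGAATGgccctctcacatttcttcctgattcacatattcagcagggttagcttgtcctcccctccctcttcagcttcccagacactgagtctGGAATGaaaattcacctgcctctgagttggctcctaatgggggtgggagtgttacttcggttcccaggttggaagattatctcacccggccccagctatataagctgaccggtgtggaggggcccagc
AMOTL2: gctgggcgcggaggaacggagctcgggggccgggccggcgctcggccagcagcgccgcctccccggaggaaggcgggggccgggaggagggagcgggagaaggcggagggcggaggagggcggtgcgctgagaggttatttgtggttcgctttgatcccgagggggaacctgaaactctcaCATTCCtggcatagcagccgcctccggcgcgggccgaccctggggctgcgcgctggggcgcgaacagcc
AMOTL1: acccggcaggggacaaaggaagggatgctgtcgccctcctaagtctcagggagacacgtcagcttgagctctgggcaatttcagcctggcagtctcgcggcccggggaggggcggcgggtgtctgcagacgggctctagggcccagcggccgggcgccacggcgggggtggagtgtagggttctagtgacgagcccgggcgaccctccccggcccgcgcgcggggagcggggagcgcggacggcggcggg

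CTGF held the hexamer 3 times, with first bases at -169, -104 and -95 from the start, and ANKRD1 held it at -220 and -128, all on the gene's own strand. AMOTL2 held 1 copy on the opposite strand, at -69 from its second start, and AMOTL1 held 0. The only AMOTL1 window and both WWTR1 windows lie inside the annotated genes, so the bases before their outermost annotated starts were not searched. Among the other windows, YAP1 held it once at -162 and the second start of AJUBA once at -59, though neither gene passed the test. LATS2, lower on the adjusted p alone, and both WWTR1 starts had no match. The first starts of AMOTL2 and AJUBA had no match either. In all, 5 of the 11 windows, each of a different gene, had at least 1 match. Of 35116 RefSeq windows of this length, 11.9% held the hexamer on either strand, 0.940% held it at least 2 times and 0.0826% at least 3 times. A match is a string of letters and not a measured binding site.

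**Figure D2:**
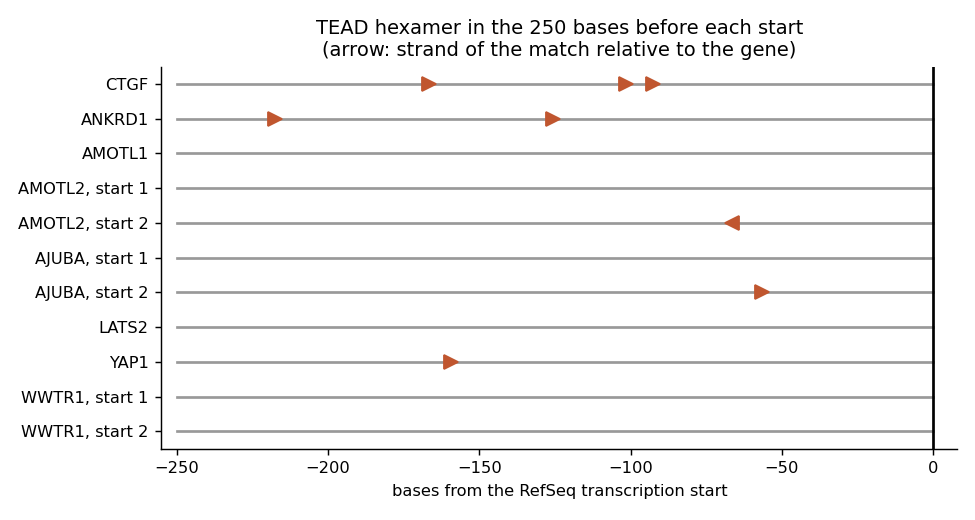
Positions of GGAATG or CATTCC (marks) in the 250 bases before each RefSeq start of 8 genes, with distance from the start in bases on the horizontal axis and 1 line per start. CTGF carries 3 matches and ANKRD1 carries 2, while no other window carries more than 1.

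The coactivators themselves moved little, and in opposite directions. YAP1, at chr11:102110447-102233424 on the plus strand, was at 46.4, 38.7 and 41.6 FPKM in shCtr and at 35.1, 32.6 and 35.5 FPKM in shZNF148. WWTR1, at chr3:149517235-149736714 on the minus strand, was at 14.9, 15.8 and 14.5 FPKM in shCtr and at 19.5, 17.3 and 18.6 FPKM in shZNF148. For YAP1 every knockdown sample was below the controls, and for WWTR1 every knockdown sample was above them. The log2 fold change of YAP1 was -0.28 (SE 0.08, 95% confidence interval -0.48 to -0.09) with a limma adjusted p of 0.0657. That of WWTR1 was 0.28 (SE 0.07, 95% confidence interval 0.10 to 0.45) with a limma adjusted p of 0.0552. Neither passed, although WWTR1 passed on the adjusted p with equal summed FPKM (0.0379), with a minimum mean of 5 FPKM (0.0443) and without shZNF148 replicate 2 (0.0353), always under 1.5-fold.

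The ratio of the 2 coactivators was examined within each sample after their values were seen, as 1 of 5 gene pairs. The log2 ratio of WWTR1 to YAP1 was -1.42 ± 0.17 in control and -0.86 ± 0.04 in knockdown (SD, n = 3 each), a difference of 0.56. The exact two-sided permutation p was 0.1, the smallest that 3 against 3 samples allow, and 0.125 after Benjamini-Hochberg adjustment over the 5 pairs. The difference is that of the log2 fold changes given above, so it adds no separate evidence.

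TEAD1 encodes a TEA domain factor that carries YAP and TAZ to DNA, and lies at chr11:12674421-12944737 on the plus strand. It was at 33.1, 32.3 and 33.6 FPKM in shCtr and at 27.7, 16.5 and 28.4 FPKM in shZNF148. All knockdown samples were lower, with shZNF148 replicate 2 far below the other two. The log2 fold change of -0.47 (SE 0.20) did not pass at a limma adjusted p of 0.147. Without shZNF148 replicate 2 it was -0.23 with an adjusted p of 0.0443, smaller in size and past the threshold on p, but under 1.5-fold.

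LATS2, 1 of the 2 kinases that phosphorylate YAP and TAZ, is itself a YAP target and is annotated at chr13:20973036-21061586 on the minus strand. Its levels were 9.77, 10.2 and 10.7 FPKM in shCtr and 7.29, 6.30 and 7.59 FPKM in shZNF148. The groups did not overlap, and the knockdown mean was 69.1% of control. LATS2 fell by 0.48 on the log2 scale (SE 0.09, 95% confidence interval -0.69 to -0.26, limma adjusted p = 0.0250), which is less than 1.5-fold. Without shCtr replicate 1, 2 or 3 or shZNF148 replicate 1 its adjusted p was 0.0925, 0.0719, 0.0964 and 0.0606.

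The angiomotin-like genes encode junction scaffolds that hold YAP and TAZ in the cytoplasm, and both are listed as YAP targets. AMOTL2, at chr3:134355347-134375479 on the minus strand, was at 31.8, 42.5 and 35.6 FPKM in shCtr and at 34.6, 34.9 and 31.1 FPKM in shZNF148. AMOTL1, at chr11:94706431-94876748 on the plus strand, was at 14.04, 14.9 and 14.7 FPKM in shCtr and at 16.1 FPKM in each of the 3 shZNF148 samples. The AMOTL2 groups overlapped, whereas every AMOTL1 knockdown sample was slightly above the controls. AMOTL2 had a log2 fold change of -0.12 (SE 0.11, 95% confidence interval -0.39 to 0.15, limma adjusted p = 0.502). AMOTL1 had 0.14 (SE 0.06, 95% confidence interval -0.01 to 0.29, limma adjusted p = 0.171).

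AJUBA encodes a LIM-domain scaffold that binds LATS kinases and lowers their activity. It lies at chr14:22971177-22982551 on the minus strand. Control samples were at 40.0, 37.9 and 40.2 FPKM and knockdown samples at 43.3, 42.1 and 45.0 FPKM. The knockdown samples were all higher by a small margin, and the log2 fold change of 0.14 (SE 0.06) did not pass at a limma adjusted p of 0.153.

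**Figure D3:**
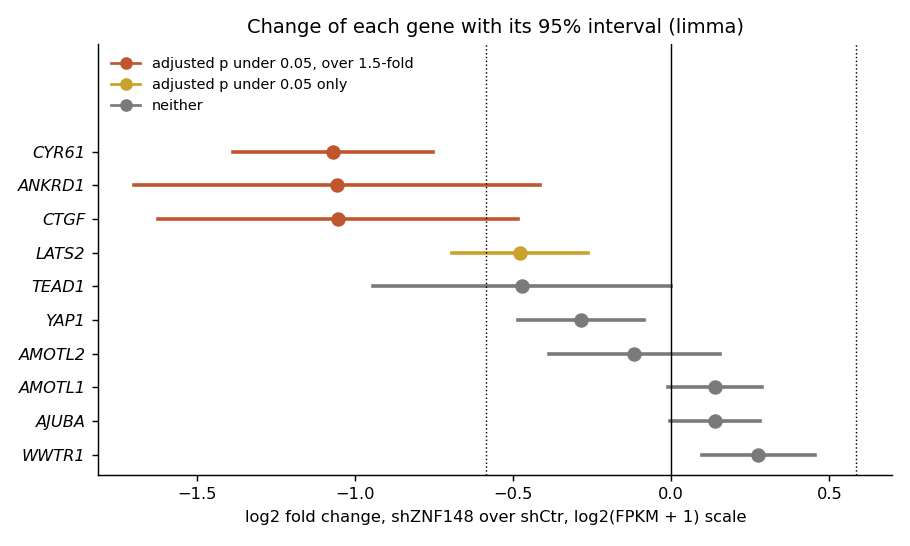
Log2 fold change of each of the 10 genes, shZNF148 over shCtr on the log2(FPKM + 1) scale, with 95% confidence intervals from limma. CYR61, ANKRD1 and CTGF lie near -1.1 with intervals that stay below -0.4, and LATS2 lies at -0.48, while AMOTL1, AMOTL2 and AJUBA lie within 0.14 of 0.

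Across the 10 genes, the groups did not overlap in 9, with 6 lower and 3 higher in shZNF148. Over all tested rows, 21.0% did not overlap with shZNF148 lower and 20.0% with shZNF148 higher. The library shZNF148 replicate 2, which also had the least ZNF148, was the lowest of its group for 9 of the 10 genes. For AMOTL1, AJUBA and WWTR1, which were higher in shZNF148, this lowest value was the nearest to control, and the AMOTL1 values were nearly equal. Any link between the ZNF148 level of a library and these genes was not tested. The library shZNF148 replicate 2 was the lowest of its group for 68.7% of the 431 rows called lower and for 38.7% of all tested rows. Without it CTGF was at -0.76 (limma adjusted p = 0.00785), CYR61 at -0.94 (0.00755) and ANKRD1 at -0.72 (0.0104), and all 3 remained called.

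The 3 secreted or nuclear targets were then set against AMOTL2, a target that did not pass, within each sample. The log2 ratio of CTGF to AMOTL2 was 1.90 ± 0.20 in shCtr and 0.96 ± 0.58 in shZNF148 (SD, n = 3 each). For CYR61 the ratio to AMOTL2 was 4.47 ± 0.35 and 3.51 ± 0.31, and for ANKRD1 it was 2.62 ± 0.21 and 1.68 ± 0.66. The differences of -0.94, -0.95 and -0.94 each had an exact two-sided permutation p of 0.1, again the smallest possible (0.125 adjusted). The ratio of CTGF to CYR61 differed between the groups by 0.02 with an exact permutation p of 1. These pairs too were chosen after the values were seen, and each difference is that of the log2 fold changes already given, so it adds no separate evidence.

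**Figure D4:**
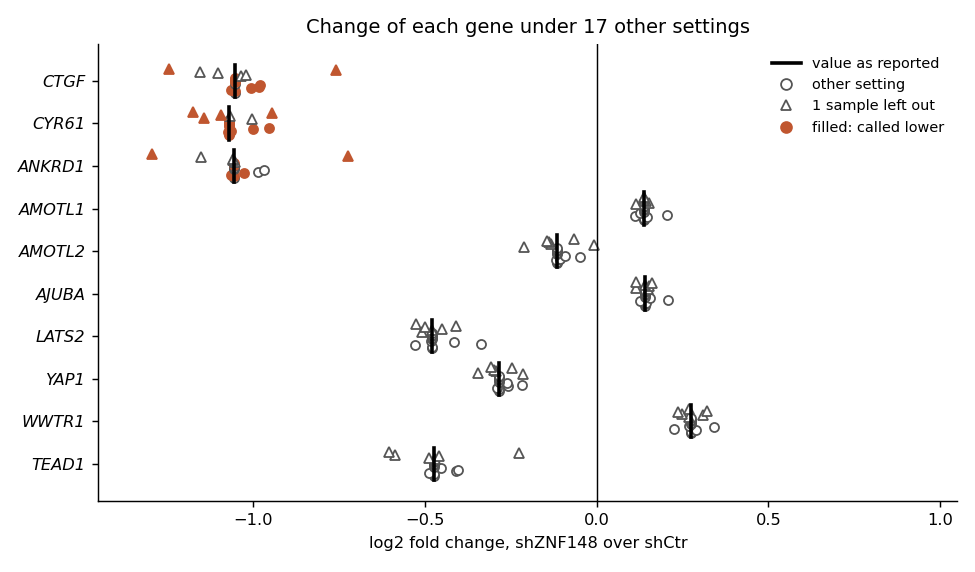
Log2 fold change of the 10 genes in the fit as reported and under each alternative setting, including the removal of each sample in turn. CTGF, CYR61 and ANKRD1 stay negative under every setting plotted, with lowest values of -1.24, -1.17 and -1.29 and highest values of -0.76, -0.94 and -0.72.

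The rest of the pathway was read from 3 lists of genes. Of 22 Hippo kinases and scaffolds, 21 were tested, 1 was called lower and 0 higher, and their median log2 fold change was 0.05. The 1 called gene is 4.76% of the list, near the 3.66% of all tested rows called lower. The called gene was WWC1, which encodes KIBRA, a scaffold that promotes LATS activation. WWC1 was at 30.8, 34.1 and 29.3 FPKM in shCtr and at 19.9, 15.6 and 19.6 FPKM in shZNF148, with every knockdown sample below control (log2 fold change -0.75, SE 0.11, limma adjusted p = 0.0159). Its call held in 13 of 17 alternative settings. On the adjusted p alone, FRMD6 was also lower, while TAOK2, PTPN14, STK38 and STK38L were higher by 0.33 to 0.41. That makes 2 lower and 4 higher of 21 on this looser rule, which 8.13% of all tested rows passed as lower and 5.46% as higher. These 5 genes lie outside the naming rule and were chosen after their values were seen. The other LATS kinase gene, LATS1, had a log2 fold change of 0.18 (limma adjusted p = 0.401). NF2 was at 1.63 FPKM in shCtr and 1.58 FPKM in shZNF148 (log2 fold change -0.05, limma adjusted p = 0.865), and its transcript level does not show whether a functional protein is made.

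The other TEAD genes and the Vestigial-like cofactors, which compete with YAP and TAZ for TEAD, numbered 7, of which 4 passed the filter and 0 were called. With 3.66% of all tested rows called lower and 1.83% higher, a count of 0 among 4 genes says little. In shCtr, TEAD3 was at 40.6 ± 3.16 FPKM (SD, n = 3), above TEAD1, TEAD2 was at 13.5 ± 0.702 and TEAD4 at 8.95 ± 0.476. Their log2 fold changes were 0.22, 0.18 and -0.14, with limma adjusted p of 0.174, 0.118 and 0.424. VGLL4 was at 6.33, 6.21 and 7.33 FPKM in shCtr and at 8.84, 11.4 and 8.19 FPKM in shZNF148. VGLL3, under the filter and so not tested, was at 0.781, 0.969 and 1.21 FPKM in shCtr and at 0.497, 0.473 and 0.601 FPKM in shZNF148. The groups did not overlap for either gene, with VGLL4 higher and VGLL3 lower in shZNF148. VGLL4 had a log2 fold change of 0.45 (SE 0.13), the largest of the 4 tested, and did not pass at a limma adjusted p of 0.0655. VGLL1 and VGLL2 were listed at 0, and all 4 VGLL genes were named after their values were seen.

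Of 26 other genes commonly listed as YAP, TAZ or TEAD targets, all were tested, 7 were called lower and 0 higher. This is 26.9% called lower, beside 3.66% of all tested rows. The list was drawn up with earlier results of these data known, so the comparison of these shares is not independent of the values. The log2 fold change was negative for 21 of the 26, beside 5785 of the 11777 tested rows. Its median was -0.26 over the list and 0.01 over all tested rows. Among the 7 called lower were F3, CRIM1, GADD45A, CCDC80, TGFB2 and ANLN. Many genes of this list also respond to other signals, TGF-beta among them, so the list is not specific to YAP.

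F3, the gene of tissue factor, was at 386, 379 and 348 FPKM in shCtr and at 217, 205 and 259.6 FPKM in shZNF148. Every knockdown sample was below every control sample, and F3 fell by 0.71 on the log2 scale (SE 0.10, limma adjusted p = 0.0146). TGFB2, a secreted ligand of the TGF-beta family, was at 39.7, 41.0 and 36.9 FPKM in shCtr and at 22.8, 13.0 and 23.8 FPKM in shZNF148. CRIM1, a transmembrane binder of bone morphogenetic proteins, was at 71.0, 80.3 and 74.5 FPKM in shCtr and at 43.4, 30.8 and 42.8 FPKM in shZNF148. The knockdown samples were again all lower, and TGFB2 and CRIM1 fell by 0.99 and 0.95 on the log2 scale (limma adjusted p = 0.0330 and 0.0156). CCDC80, GADD45A and ANLN fell by 0.79, 0.70 and 0.67 (limma adjusted p = 0.0182, 0.0324 and 0.0417). GADD45A encodes a stress-induced growth arrest protein, and ANLN the actin-binding protein anillin of the cleavage furrow. Over 17 alternative settings the call held in 14 each for F3, CRIM1 and CCDC80, in 12 for GADD45A, in 11 for TGFB2 and in 7 for ANLN. Without shZNF148 replicate 2, ANLN was at -0.48, under 1.5-fold and no longer called, and 6 of the 26 genes were called.

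**Figure D5:**
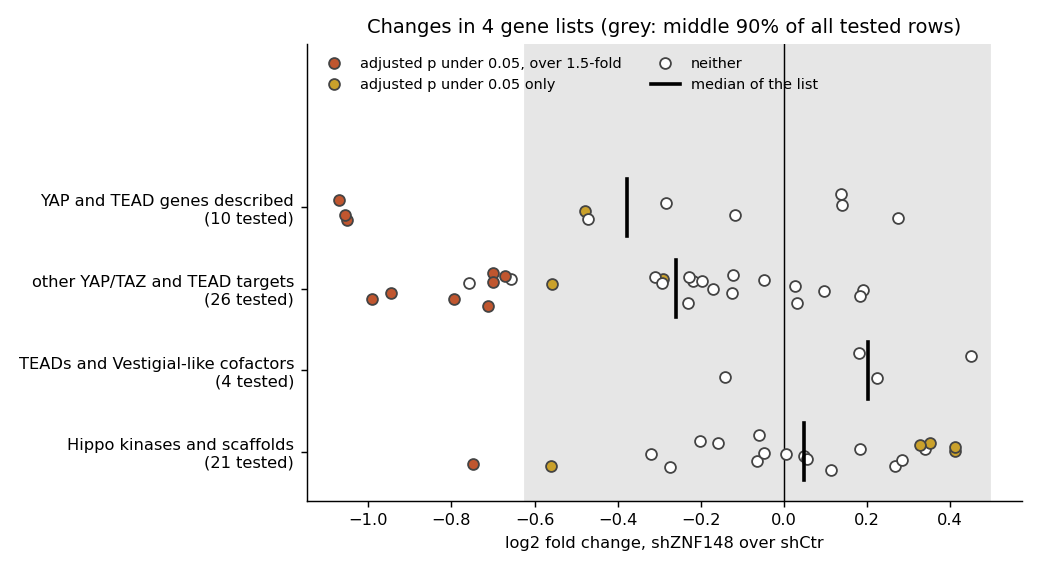
Log2 fold change, shZNF148 over shCtr on the log2(FPKM + 1) scale, of each tested gene (points) in the 10 genes described and in the 3 pathway lists, with the median of each list marked. The medians are -0.38 for the 10 genes, 0.05 for Hippo kinases and scaffolds, 0.20 for TEADs and Vestigial-like cofactors and -0.26 for the other targets.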

How the data were processed

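RNA of 6 MDA-MB-231 samples was sequenced, and the authors deposited 1 matrix of FPKM values for the series. The submitters' processing notes name bcl2fastq 2.17.1.14, TopHat2 2.0.14, Cufflinks 2.2.1 and Cuffnorm 2.2.1 and the builds hg18 and hg19, while the methods of the study name Salmon with GRCh38, so the route to these values is not settled, and the annotation is not given in the sources used here. FPKM corrects for transcript length and library size. No read counts were used, so the counting error behind each value is unknown and no count test was run.

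Groups came from the sample labels. Values were taken as log2(FPKM + 1), and the 11777 of 24108 rows averaging 1 or more FPKM were fitted with limma 3.58.1 (R 4.3.3, empirical Bayes with a mean-variance trend, group only) and Benjamini-Hochberg adjustment. Calls required both an adjusted p below 0.05 and a difference of over 1.5-fold. A fold change on this scale understates that of low genes. On simulated data of 11777 rows for this comparison, 86.5% of 200 changed rows were called, with 7 false calls. The changed rows were all shifted by the same amount, larger than 1.5-fold, with independent normal noise. The share called does not apply to smaller changes. Gene pairs were compared with an exact two-sided permutation test (scipy 1.17.1). The 10 genes were named whatever their result. From each pathway list, called genes were named, except 1 that is not reported here, with LATS1, NF2, TEAD2, TEAD3 and TEAD4 whatever their result. The genes and lists were chosen with earlier results of these data known. Gene positions come from GENCODE on GRCh38, a build that may differ from that of the files, and promoter sequences from RefSeq. Alternatives varied the filter, pseudocount, scaling, variance model, replicate block, handling of repeated rows and of rows at 0, and the samples included.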

Additional observations from a re-analysis of the deposited data

How the results depend on the processing

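The log2 fold changes of the 10 genes kept their direction in every alternative run. The calls changed when 1 sample was left out, which also leaves fewer samples for the fit. Without shCtr replicate 1, 2 or 3, ANKRD1 was at -1.05, -1.06 and -1.06. Its SE was then 0.33, 0.33 and 0.32, in place of 0.27 with all samples. Leaving out 1 sample at a time gave 0 to 3 of the 10 genes called lower, 0 to 2 Hippo kinases and scaffolds, 0 to 8 of the 26 other targets, and 3 to 222 rows called higher and 26 to 397 called lower, against 216 and 431 with all samples. The fewest came without shCtr replicate 1 (3 higher, 26 lower) and shCtr replicate 3 (7 and 40), followed by shCtr replicate 2 (76 and 175) and shZNF148 replicate 1 (79 and 232). Without shZNF148 replicate 2 there were 164 and 397, and without shZNF148 replicate 3 there were 222 and 386. The cause of these differences was not tested. With no filter on low values 1 of the 10 genes was called. A pseudocount of 5 FPKM gave 76 rows higher and 204 lower. Scaling to equal summed FPKM gave 339 higher and 324 lower and moved the median log2 fold change of all rows to 0.07. On the adjusted p alone, 6 Hippo kinases and scaffolds passed.

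The replicate numbers were not taken as pairs: deviations from the group means of same-numbered samples correlated at 0.001, -0.088 and 0.030. Only shZNF148 replicate 3 correlated best with its own number in the other group. The ERBB2 row, however, was high in replicate 2 of both groups, at 126 FPKM in shCtr and 125 FPKM in shZNF148. With the replicate block, 99 rows were called higher and 216 lower, with 1 of the 10 genes (CYR61), 0 Hippo kinases and scaffolds and 3 of the other targets among them. The adjusted p of CTGF was then 0.0659, of ANKRD1 0.0663 and of LATS2 0.0621.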
